A study of Mus musculus with 12 samples.

Results

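The 10 genes described here encode growth factor receptors and growth factor ligands, a set labelled growth factor receptors and myoblast mitogens. The receptors are Fgfr1, Fgfr4, Met, Egfr, Pdgfra and Pdgfrb, and the ligands are Fgf2, Fgf7, Hgf and Hbegf. They were chosen by name, as the rows of the deposited expression table whose Ensembl identifier carries these symbols, and all 10 were found among the 46983 rows. RNA was sequenced from C2C12, a mouse myoblast line, with 3 libraries in each of 4 groups. The WT_0d and WT_5d libraries came from wild-type cells, which the study also calls its PB-IP group after the empty PiggyBac vector, and the PPARγ/+_0d and PPARγ/+_5d libraries came from cells that carried the coding sequence of PPARγ in that vector. The number before d is the day of differentiation. The methods describe puromycin selection of positive clones after transfection and stable lines, whereas the series text calls the cells inducible and their controls uninduced, and no source used here names an inducing agent or the number of clones. The methods name a single medium, with fetal bovine serum and leukaemia inhibitory factor, and describe neither a change to low serum nor an added FGF, HGF, EGF or PDGF. The replicates are called biological, without a statement of what was repeated, so p-values measure the spread between these libraries.

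All 6 receptors are receptor tyrosine kinases. A bound ligand pairs the receptors, which phosphorylate each other and pass the signal through adaptors and RAS to the kinase ERK. In muscle, FGF2 and HGF are known as mitogens that keep myoblasts dividing and delay their differentiation, HGF is the ligand of MET and HB-EGF a ligand of EGFR. PDGF receptor alpha marks the fibro-adipogenic cells of muscle tissue and PDGF receptor beta its pericytes, and both are also made by cultured mesenchymal lines. PPARγ is the nuclear receptor that drives adipocyte differentiation. ERK activity induces its own inhibitors, among them Sprouty proteins, dual-specificity phosphatases and ERRFI1, so their transcripts are often read as signs of signalling.

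Levels are given in FPKM, fragments per kilobase of transcript scaled to the mapped fragments of the library, as deposited. Each library held between 15557940 and 22013355 fragments on genes, recovered from the FPKM. Pparg itself was at 7.56, 5.10 and 6.92 FPKM in the WT_0d libraries (replicates 1, 2 and 3, the order used throughout) and at 3.12, 3.53 and 4.59 in WT_5d. In PPARγ/+ cells it was at 44.4, 28.0 and 46.4 FPKM on 0d and at 40.1, 44.1 and 92.7 on 5d, so every PPARγ/+ library lay above every WT library. The myoblast list of 8 genes (Myod1, Myf5, Pax7, Pax3, Des, Cdh15, Vcam1 and Ncam1) summed to 168.6 to 291.4 FPKM in WT_0d and 81.1 to 109 in PPARγ/+_0d. The 10 myotube genes summed to 11.2 to 114 FPKM in WT_0d, 976 to 4421 in WT_5d, 7.94 to 25.2 in PPARγ/+_0d and 991 to 1158 in PPARγ/+_5d. WT_5d replicate 3 stood apart from the other libraries of its group. Its myotube genes summed to 976 FPKM, against 4421 and 3371 in replicates 1 and 2. Across the 18023 genes tested, r was 0.9612 at its lowest within WT_5d, against at least 0.9765 within each other group. The pair of libraries with that lowest r was not identified. Results that rest on WT_5d replicate 3 are therefore also given without it. From 0d to 5d, all 9 tested myotube genes were called higher and all 10 proliferation genes lower in both cell types. Myh8 and Actn2 averaged 0.0114 and 0.0622 FPKM in WT_0d and passed the filter through their level on 5d, so their direction was partly set by it. Of the 7 tested myoblast genes, 3 were called higher and Myf5 lower in WT cells, and 5 higher in PPARγ/+ cells. Of the 7 tested adipocyte genes, 1 was called higher in WT cells (Cd36) and 6 in PPARγ/+ cells, where the list summed to 10.6 to 17.3 FPKM on 0d and 44.8 to 142 on 5d. Cfd and Plin1 averaged 0.0738 and 0.110 FPKM in PPARγ/+_0d and passed the filter through PPARγ/+_5d, which partly set their direction. Cfd was at 4.58 ± 6.70 FPKM in PPARγ/+_5d, and its call held in 10 of 15 alternatives. Of the 6 endothelial genes 1 passed the filter and was not called, and Pecam1 and Cdh5 averaged at most 0.0266 FPKM in every group. Of the 7 leukocyte genes 3 passed, of which Lyz2 was called higher from 0d to 5d in both cell types and in PPARγ/+ cells on 0d, while Ptprc averaged at most 0.00389 FPKM.

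The bases before the start of the genes that moved are shown first, to let a reader see the windows in which motifs were counted. RefSeq promoter entries (GRCm38.p6) were used for 7 of the 10 genes, namely Fgfr4, Egfr, Pdgfra, Met, Fgf2, Fgf7 and Hgf, and Hgf had more than 1 entry. The promoters of the other members were not examined, so the motif counts do not cover them. The windows shown are the 250 bases before the start of the RefSeq entry, 5′ to 3′ on the plus strand, on which all 5 genes lie. They are chr13:55152568-55152817 for Fgfr4, chr11:16751953-16752202 for Egfr, chr5:75152001-75152250 for Pdgfra, chr3:37348403-37348652 for Fgf2 and chr6:17463707-17463956 for Met. The gene spans given with the results come from another annotation, in which a gene can begin elsewhere, so the Fgf2 window lies wholly inside that gene's span and those of Fgfr4 and Met partly inside theirs. Fgfr4, Egfr, Pdgfra and Fgf2 are the members that rose at least 2-fold between 0d and 5d in PPARγ/+ cells, and Met is the receptor that was lower on 5d in WT cells, just under 2-fold. Capitals mark the letters CANNTG, the E-box bound by MYOD1 and other helix-loop-helix factors, and GGGCGG, the GC box, each on either strand.
Fgfr4: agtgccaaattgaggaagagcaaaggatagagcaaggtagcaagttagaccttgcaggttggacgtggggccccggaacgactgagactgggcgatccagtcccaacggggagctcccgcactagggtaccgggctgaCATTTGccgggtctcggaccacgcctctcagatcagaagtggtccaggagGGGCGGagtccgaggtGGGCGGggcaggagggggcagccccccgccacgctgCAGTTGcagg
Egfr: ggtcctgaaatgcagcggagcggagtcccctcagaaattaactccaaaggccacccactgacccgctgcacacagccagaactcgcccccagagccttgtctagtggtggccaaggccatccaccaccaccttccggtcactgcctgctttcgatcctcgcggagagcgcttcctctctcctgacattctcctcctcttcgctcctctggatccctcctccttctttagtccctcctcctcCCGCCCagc
Pdgfra: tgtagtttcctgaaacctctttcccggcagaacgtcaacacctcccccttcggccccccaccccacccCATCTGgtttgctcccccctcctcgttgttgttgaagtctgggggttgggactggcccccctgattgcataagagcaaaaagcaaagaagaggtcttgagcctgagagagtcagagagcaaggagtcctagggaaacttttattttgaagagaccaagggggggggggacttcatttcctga
Fgf2: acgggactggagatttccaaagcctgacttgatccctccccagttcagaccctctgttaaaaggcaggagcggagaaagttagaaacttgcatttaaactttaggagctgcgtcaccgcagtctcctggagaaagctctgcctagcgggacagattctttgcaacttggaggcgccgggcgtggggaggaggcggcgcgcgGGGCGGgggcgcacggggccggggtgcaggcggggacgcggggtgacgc
Met: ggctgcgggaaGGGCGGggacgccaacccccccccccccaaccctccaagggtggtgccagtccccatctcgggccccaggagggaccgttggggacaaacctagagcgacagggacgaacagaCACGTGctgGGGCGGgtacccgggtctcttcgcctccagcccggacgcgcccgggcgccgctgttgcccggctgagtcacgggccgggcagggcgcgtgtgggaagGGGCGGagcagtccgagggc

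An E-box of the form CANNTG lay in the windows of Fgfr4, Pdgfra and Met and in none of those of Egfr and Fgf2, while 66.2% of the 32851 RefSeq windows of the same length hold it. Its narrower form CAGCTG, which is contained in CANNTG, was in none of the 5 windows and is in 13% of all. GGGCGG occurred 3 times before Met, 2 times before Fgfr4, and 1 time each before Egfr and Fgf2, whereas the Pdgfra window held none. It is in 32.7% of all windows. The PPAR element DR1, searched as 2 copies of AGGTCA on the same strand with 1 base between them, was in none of the windows of the 7 genes and is in 0.0335% of all. These exact letters are a narrow form of the element, and a window without them says nothing of the factor. The window of Met had 74.0% G and C, the highest of the 7 genes, and that of Fgf7 had 43.6%, against a median of 52.4% over all windows. No motif was shared by all 4 windows of the genes that rose at least 2-fold in PPARγ/+ cells.

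On the FPKM scale, which corrects for transcript length, Pdgfrb had the highest level in all 4 groups, with a mean from 81.3 ± 9.22 FPKM (SD, n = 3) in WT_0d to 143 ± 4.59 in PPARγ/+_5d. Fgfr1 followed in WT_0d, with 31.6 ± 5.63 FPKM, and Fgf7 came next with 13.6 ± 2.64, without overlap between these 3 genes. Fgfr4 was last in all groups and had only 5 to 23 recovered fragments per library on 0d, in both cell types. From Pdgfra to Fgf2, the members ranked 6 to 9 in WT_0d, neighbours in the order overlapped. In PPARγ/+_5d, Fgf7 (28.1 ± 2.84 FPKM) and Fgfr1 (26.2 ± 1.35) overlapped at the ranks below Pdgfrb, and Met, ranked 4 in WT_0d, was ranked 9 on 5d in both cell types, where it overlapped Fgf2.

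**Figure D1:**
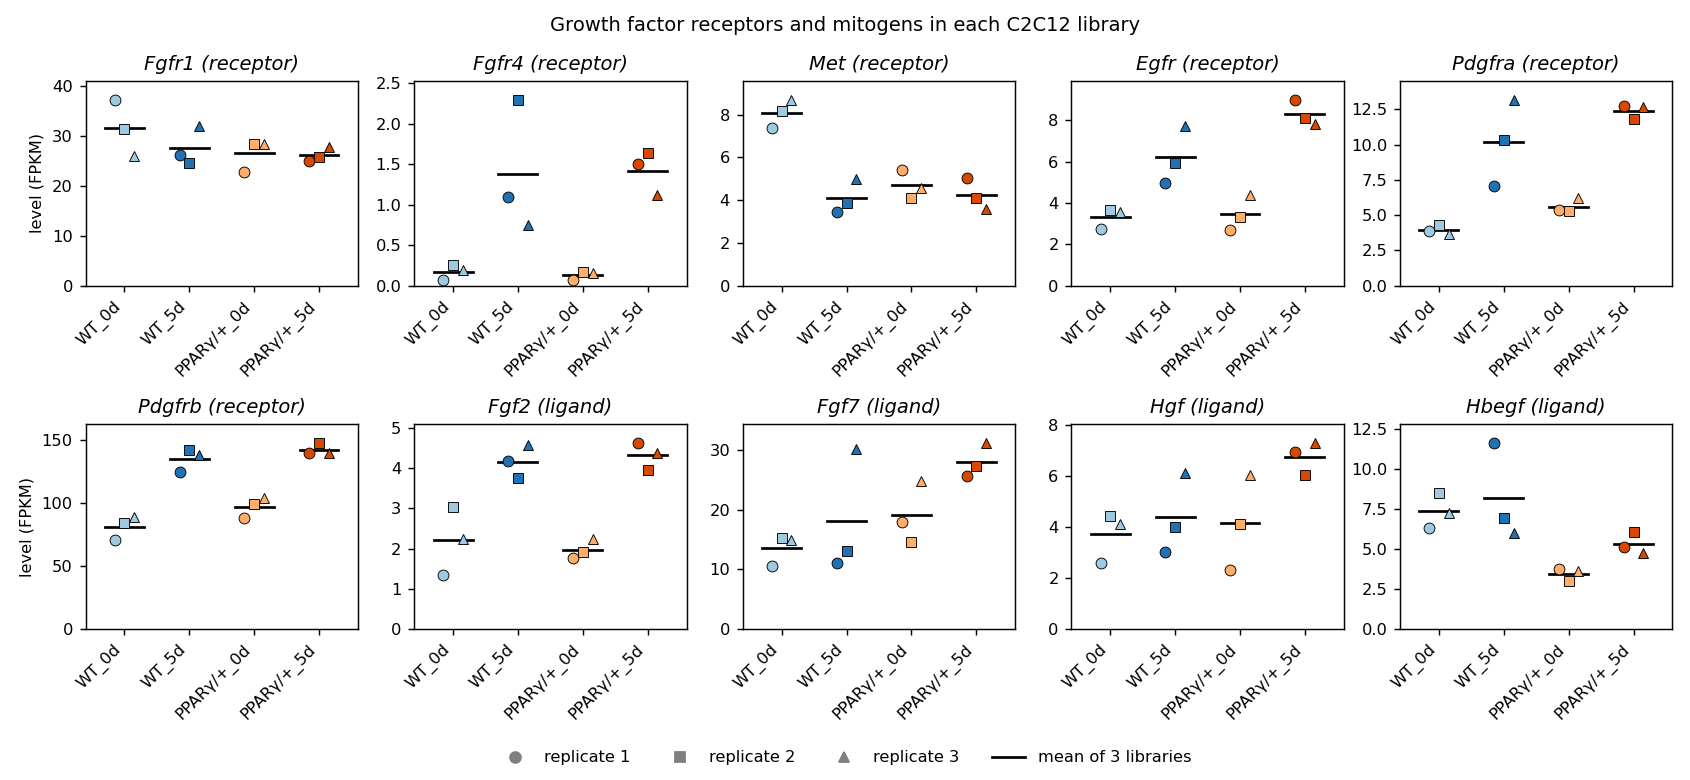
Level of each member in FPKM (vertical axes, each from 0) in the 12 libraries. The horizontal axes hold the 4 groups, symbols mark the replicate and lines the mean of 3 libraries. Fgfr4, Egfr, Pdgfra, Pdgfrb and Fgf2 lie higher on 5d than on 0d without overlap in both cell types, Met is lower on 5d only in WT cells, and Fgf7 in WT_5d replicate 3 (30.3 FPKM) lies apart from replicates 1 and 2 (11.1 and 13.1).

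The change from 0d to 5d was compared within each cell type by limma on log2(FPKM + 0.1), over the 18023 genes with at least 0.1 FPKM in at least 3 libraries, and all 10 members passed this filter. The study's thresholds, an unadjusted p of no more than 0.05 with a change of 2-fold or more, defined a call, and Benjamini-Hochberg adjusted p-values over all genes tested are given with each value. In WT cells 2 members, Fgfr4 and Pdgfra, were called higher and 0 lower, where 8.94% of all genes were called higher and 7.53% lower. In PPARγ/+ cells 4 members, Fgfr4, Pdgfra, Egfr and Fgf2, were called higher and 0 lower, against 9.11% and 6.06% of all genes. Without WT_5d replicate 3, Met joined Fgfr4 and Pdgfra in WT cells, for 3 members called. At an adjusted p of at most 0.05 without a minimum fold, a threshold added after the values were seen, 6 members changed in WT cells, 5 of them upward, and 7 changed in PPARγ/+ cells, each upward. That threshold took 37.1% of all genes in WT and 47.5% in PPARγ/+ cells. The libraries of the 2 days did not overlap for 6 of the 10 members in WT and 8 of 10 in PPARγ/+ cells, which is read against 51.1% and 58.1% of all genes. The median log2 change of the 10 members was 0.51 in WT and 0.70 in PPARγ/+ cells, beside a median of -0.08 and -0.10 over all genes. Median-ratio scaling moved the latter from -0.08 to 0.02 in WT and from -0.10 to 0.02 in PPARγ/+ cells, and moved the single genes by about as much. The cells of a culture were sequenced together, so more cells of a type and more RNA per cell cannot be told apart.

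**Figure D2:**
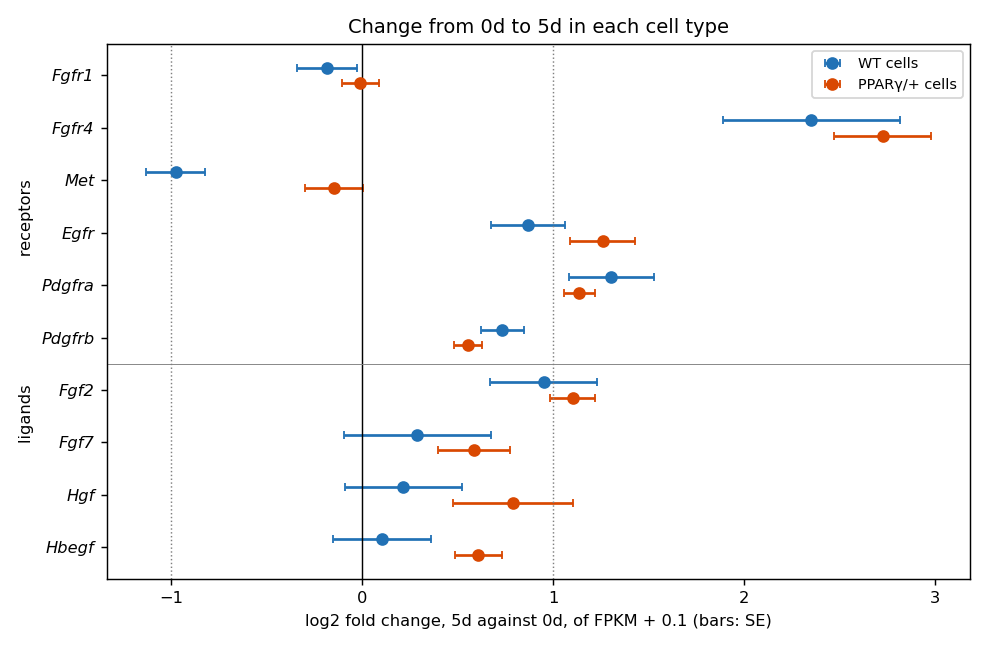
Log2 fold change from 0d to 5d of each member (horizontal axis, on FPKM + 0.1) in WT and in PPARγ/+ cells, with bars of 1 SE from limma over 6 libraries each and dotted lines at 2-fold. Fgfr4 rose most in both cell types (2.35 and 2.72), Fgfr1 stayed near 0, and Met, at -0.98 in WT and -0.15 in PPARγ/+ cells, lies furthest apart between them.

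The FGF receptors differed in course. Fgfr4, the receptor typical of differentiating myoblasts (chr13:55152640-55168759, GRCm38, as all positions below), was at 0.0728, 0.257 and 0.195 FPKM in WT_0d and at 1.097, 2.297 and 0.744 in WT_5d. In PPARγ/+ cells it was at 0.0694, 0.173 and 0.155 FPKM on 0d and at 1.498, 1.64 and 1.124 on 5d. Every library on 5d thus lay above every library on 0d. The rise was 5.10-fold in WT (log2 2.35, SE 0.46, adjusted p = 0.00935) and 6.61-fold in PPARγ/+ cells (log2 2.72, SE 0.25, adjusted p = 2.63e-04). The 0.1 FPKM added to each value is about as large as the level on 0d and draws these folds toward 1. With 1 FPKM added instead, the log2 change was 0.97 in WT cells, under 2-fold, and 1.09 in PPARγ/+ cells.

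Fgfr1, the main FGF receptor of proliferating myoblasts (chr8:25513654-25575718), was at 37.3, 31.3 and 26.0 FPKM in WT_0d, and at 26.3, 24.7 and 31.96 in WT_5d. In PPARγ/+ cells it was at 22.8, 28.5 and 28.3 FPKM on 0d and at 25.1, 25.9 and 27.7 on 5d. All 4 groups overlapped, and the log2 change was -0.18 (SE 0.16, adjusted p = 0.404) in WT and -0.01 (SE 0.098, adjusted p = 0.944) in PPARγ/+ cells. The level of Fgfr1 was 122 to 513 times that of Fgfr4 in the WT_0d libraries and 10.7 to 43.0 times in WT_5d. In PPARγ/+ cells this ratio was 164 to 328 on 0d and 15.8 to 24.6 on 5d, without overlap between the days in either cell type. Exons of Fgfr1 share 164 bases with Gm16159 on the other strand, and the library kit does not keep strand.

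Of the FGF ligands, Fgf2 (chr3:37348346-37410108), a classical myoblast mitogen, was at 1.35, 3.04 and 2.23 FPKM in WT_0d and at 4.17, 3.74 and 4.58 in WT_5d. PPARγ/+ libraries held 1.75, 1.91 and 2.23 FPKM on 0d and 4.63, 3.95 and 4.36 on 5d. The days did not overlap in either cell type. In PPARγ/+ cells Fgf2 was called, at 2.15-fold (log2 1.102, SE 0.12, adjusted p = 4.45e-04). In WT cells it rose by a log2 change of 0.95 (SE 0.28, adjusted p = 0.0393), below 2-fold. WT_0d replicate 2 held the highest level on 0d, and without it the change was 1.21 and called. It was also called without WT_5d replicate 2 (1.02), with median-ratio scaling (1.07) and with quantile normalization (1.001), while in PPARγ/+ cells a pseudocount of 1 gave 0.84, below 2-fold. Exons of Fgf2 share 640 bases with Nudt6 on the other strand and 255 with Gm43439, so reads of these genes cannot be fully told apart from its own.

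Fgf7 (chr2:126034658-126091185), a ligand made by mesenchymal cells for the FGFR2 form of epithelia, was at 10.5, 15.2 and 14.99 FPKM in WT_0d and at 11.1, 13.1 and 30.3 in WT_5d. Replicate 3 of WT_5d was far above the other libraries of its group. PPARγ/+ cells had 18.0, 14.6 and 24.8 FPKM on 0d and 25.8, 27.4 and 31.3 on 5d, with no overlap between the days. The log2 change was 0.29 (SE 0.38, adjusted p = 0.597) in WT and 0.59 (SE 0.19, adjusted p = 0.0401) in PPARγ/+ cells. Without WT_5d replicate 3 the value in WT cells was -0.16.

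The 57 calls from 0d to 5d in WT cells within the gene lists described here all held without WT_5d replicate 3. Beyond the members, 8 of 20 FGF ligand genes passed the filter. Of these, Fgf11, Fgf14, Fgf17 and Fgf21 were called higher from 0d to 5d in WT and Fgf8, Fgf11, Fgf14 and Fgf21 in PPARγ/+ cells. Fgf8, Fgf17 and Fgf21 had 0 to 3 fragments per library on 0d and passed the filter through their level on 5d, so the direction of their change was partly set by the filter. Fgf11, which stays inside the cell, had 102 to 187 fragments in WT_0d and 311 to 973 in WT_5d (log2 2.21, SE 0.43, adjusted p = 0.00885). PPARγ/+ libraries had 62 to 110 fragments of it on 0d and 286 to 404 on 5d (log2 2.28, SE 0.19, adjusted p = 1.62e-04). Fgf21, an FGF that acts as a hormone and is released by stressed or differentiating muscle, had the largest rise. It went from 0 to 2 fragments per library in WT_0d to 40 to 330 in WT_5d (8.49 ± 6.10 FPKM), and from 1 to 2 fragments in PPARγ/+_0d to 42 to 60 in PPARγ/+_5d (2.77 ± 0.515 FPKM). Its adjusted p was 0.00215 in WT and 4.09e-05 in PPARγ/+ cells. Among 6 tested FGF receptors and co-receptors outside the members, 3 were called higher in WT and 1 in PPARγ/+ cells, and none lower. Fgfbp1, which frees FGFs from the matrix, was called in both, with a log2 change of 2.06 (SE 0.47) in WT and 2.29 (SE 0.39) in PPARγ/+ cells.

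Met (chr6:17463800-17573980), the HGF receptor, was the only member lower on 5d at an adjusted p of at most 0.05, in WT cells, and it was not called at 2-fold. It was at 7.38, 8.17 and 8.71 FPKM in WT_0d and at 3.45, 3.87 and 4.99 in WT_5d, without overlap. In PPARγ/+ cells it was at 5.43, 4.11 and 4.59 FPKM on 0d and at 5.02, 4.12 and 3.602 on 5d, where the days overlapped and all 6 libraries lay below the lowest WT_0d library. In WT cells Met fell 1.97-fold (log2 -0.98, SE 0.15, adjusted p = 0.00412), just under the 2-fold threshold, and it was called without WT_5d replicate 3 (log2 -1.12) or WT_0d replicate 1 (log2 -1.04). In PPARγ/+ cells the change was -0.15 (SE 0.15, adjusted p = 0.461).

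To ask whether Met took another course in PPARγ/+ than in WT cells, an interaction term was fitted to the 12 libraries. The log2 difference of the changes was 0.83 (SE 0.23, adjusted p = 0.147), which did not pass the threshold of 0.05. Without WT_5d replicate 3 it was 0.98 (SE 0.20, adjusted p = 0.0343) and passed. In none of the other 19 alternatives was it called, with adjusted p up to 0.310.

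Hgf (chr5:16553495-16620152), the ligand of MET and a wake-up signal of satellite cells, was at 2.58, 4.43 and 4.13 FPKM in WT_0d and at 3.03, 4.02 and 6.14 in WT_5d. PPARγ/+ cells held 2.31, 4.11 and 6.05 FPKM on 0d and 6.94, 6.07 and 7.32 on 5d. The 0d libraries spread widely, and the highest of them nearly reached the lowest on 5d. The log2 change was 0.22 (SE 0.31, adjusted p = 0.622) in WT and 0.79 (SE 0.32, adjusted p = 0.0810) in PPARγ/+ cells, and neither was called. Without PPARγ/+_0d replicate 3, the highest of its group, the latter was 1.104 and called. The ratio of Met to Hgf, both in FPKM of the same library, was 1.85 to 2.86 in WT_0d and 0.812 to 1.14 in WT_5d. In PPARγ/+ cells it was 0.758 to 2.34 on 0d and 0.492 to 0.724 on 5d, so in each cell type the ratio was lower in every library on 5d. Exons of Hgf share 484 bases with Gm43489 on the same strand.

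HGF is secreted as an inactive chain and cut by proteases. Of 11 genes for these activators, their inhibitors and relatives of MET, 7 were tested. In PPARγ/+ cells Plat and Plau, the plasminogen activators of tissue and urokinase type, were called higher and Spint1, an inhibitor of the HGF-cutting proteases, lower from 0d to 5d. Plat rose from 17.9 ± 3.57 to 56.5 ± 1.81 FPKM (log2 1.67, SE 0.13, adjusted p = 1.41e-04) and Spint1 fell from 1.96 ± 0.285 to 0.771 ± 0.125 (log2 -1.24, SE 0.17, adjusted p = 0.00122). In WT cells 1 of the 7 genes was called, Hgfac, which had at most 16 fragments in a library and passed the filter through WT_5d.

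**Figure D3:**
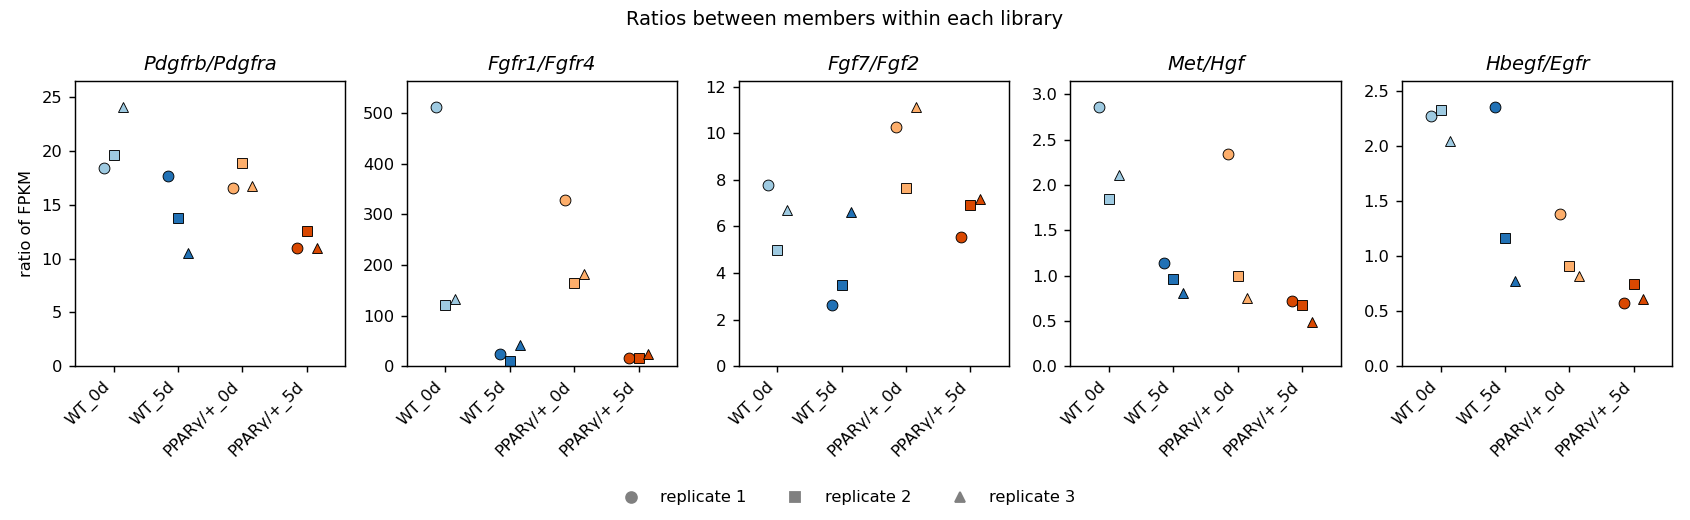
Ratio of the FPKM of a pair of members within each library (vertical axes, each from 0), by group, with symbols for the replicate. Fgfr1/Fgfr4 and Met/Hgf are lower in every library on 5d than on 0d within a cell type, and Hbegf/Egfr is between 2.05 and 2.33 in WT_0d and at most 1.39 in every PPARγ/+ library.

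Egfr (chr11:16752203-16918158), the EGF receptor, was at 2.76, 3.67 and 3.56 FPKM in WT_0d and at 4.95, 5.94 and 7.74 in WT_5d. PPARγ/+ cells held 2.71, 3.31 and 4.40 FPKM on 0d and 9.01, 8.12 and 7.80 on 5d. The days did not overlap in either cell type, and all PPARγ/+_5d libraries lay above all WT_5d libraries. In PPARγ/+ cells Egfr rose 2.39-fold (log2 1.26, SE 0.17, adjusted p = 0.00119) and was called. In WT cells the log2 change was 0.87 (SE 0.19, adjusted p = 0.0150), below 2-fold, and without WT_5d replicate 1 it was 1.02 and called. The interaction was 0.39 (SE 0.27, adjusted p = 0.632), so a difference between these rises was not shown.

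Hbegf (chr18:36504927-36515805, minus strand), a membrane-bound EGFR ligand that is shed by proteases, was at 6.30, 8.54 and 7.28 FPKM in WT_0d and at 11.7, 6.92 and 6.03 in WT_5d. PPARγ/+ cells had 3.75, 3.02 and 3.63 FPKM on 0d and 5.14, 6.09 and 4.79 on 5d. In PPARγ/+ cells the days did not overlap and the log2 change was 0.61 (SE 0.12, adjusted p = 0.00697), below 2-fold. In WT cells, where replicate 1 on 5d was the highest of all libraries, it was 0.10 (SE 0.26, adjusted p = 0.785) and changed sign without that library (-0.18).

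Other EGF family ligands, 8 of 10 of them tested, took another course in WT cells, where 4 were called lower from 0d to 5d and none higher. Amphiregulin, Areg, fell from 6.10 ± 1.02 to 0.659 ± 0.102 FPKM (log2 -3.03, SE 0.18, adjusted p = 2.13e-04). Btc, Ereg and Tgfa, the other 3, are named because the count is small, and 7.53% of all genes were called lower there. Tgfa had 32 to 42 fragments per library in WT_0d and 5 to 9 in WT_5d. Its call held in 14 of 15 alternatives, with a log2 change from -2.29 to -0.26. The calls of Btc and Ereg held in 12 and 14 of 16 alternatives. None of the 8 was called in PPARγ/+ cells, where Areg went from 3.596 ± 0.656 to 2.22 ± 0.499 FPKM (log2 -0.68, SE 0.20, adjusted p = 0.0313). The interaction was called for Areg (log2 2.35, SE 0.28, adjusted p = 0.00844), in all 20 alternatives too, and not for Btc, Ereg or Tgfa (adjusted p = 0.0616, 0.608 and 0.378). The median log2 change of the 8 ligands was -0.68 in WT and -0.19 in PPARγ/+ cells.

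Of 11 tested ERBB receptors and their regulators outside the members, 1 was called higher in WT and 2 in PPARγ/+ cells, and none lower. Erbb3, a neuregulin receptor without strong kinase activity of its own, rose from 0.916 ± 0.301 to 8.92 ± 4.84 FPKM in WT cells (log2 3.02, SE 0.48, adjusted p = 0.00445) and from 0.102 ± 0.0290 to 1.02 ± 0.0934 in PPARγ/+ cells (log2 2.47, SE 0.19, adjusted p = 1.41e-04).

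Both PDGF receptors rose in both cell types. Pdgfra (chr5:75152292-75198215) was at 3.85, 4.28 and 3.69 FPKM in WT_0d and at 7.04, 10.3 and 13.2 in WT_5d. In PPARγ/+ cells it was at 5.35, 5.26 and 6.20 FPKM on 0d and at 12.7, 11.8 and 12.7 on 5d. All libraries on 5d lay above those on 0d, and WT_5d spread more widely than any other group. The rise was 2.47-fold in WT (log2 1.30, SE 0.22, adjusted p = 0.00573) and 2.20-fold in PPARγ/+ cells (log2 1.14, SE 0.081, adjusted p = 9.78e-05), and both calls held in all 16 alternatives. Exons of Pdgfra share 30 bases with Mir7025 on the same strand and Gm42802 (456 bases) and Gm42803 (166 bases) on the other.

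Pdgfrb (chr18:61045150-61085061) was at 71.1, 84.0 and 88.9 FPKM in WT_0d and at 124, 142 and 138 in WT_5d. PPARγ/+ cells held 88.4, 99.3 and 104 FPKM on 0d and 140.3, 148 and 139.8 on 5d. The days did not overlap, and the log2 change was 0.73 (SE 0.11, adjusted p = 0.00352) in WT and 0.56 (SE 0.073, adjusted p = 0.00104) in PPARγ/+ cells, below 2-fold in both. Pdgfrb was 18.45 to 24.1 times as high as Pdgfra in WT_0d, 10.5 to 17.7 times in WT_5d, 16.5 to 18.9 times in PPARγ/+_0d and 11.01 to 12.53 times in PPARγ/+_5d. Genes of the cells in which these receptors are best known were counted in the same libraries. The 9 fibroblast and fibro-adipogenic genes summed to 494 to 652 FPKM in WT_0d, 1353 to 1793 in WT_5d, 378 to 491 in PPARγ/+_0d and 1765 to 1893 in PPARγ/+_5d, with 4 of 8 tested genes called higher in WT and 5 in PPARγ/+ cells. Thy1 of this list was not tested, being below the filter. Lum, at 0.0274 ± 0.0287 FPKM in WT_0d and 0.121 ± 0.128 in PPARγ/+_0d, passed it through its level on 5d. The 6 pericyte and smooth muscle genes summed to 473 to 543 FPKM in WT_0d and 1060 to 1311 in WT_5d, and to 468 to 618 and 797 to 961 in PPARγ/+ cells. That sum was nearly all Acta2, an actin that muscle cells also make, which was called higher in WT cells, and the list did not move as one. Of its 4 tested genes the median log2 change was -0.01 in WT and 0.88 in PPARγ/+ cells. Cspg4, the NG2 proteoglycan of pericytes, fell from 8.81 ± 0.763 to 5.80 ± 0.613 FPKM in WT (log2 -0.60, SE 0.11, adjusted p = 0.00786) and from 13.9 ± 1.28 to 7.28 ± 0.471 in PPARγ/+ cells (log2 -0.92, SE 0.086, adjusted p = 2.69e-04), under 2-fold in both. Notch3 was at 11.15 ± 1.41 and 10.16 ± 3.90 FPKM in WT_0d and WT_5d (log2 -0.20, adjusted p = 0.623). In PPARγ/+ cells Notch3 rose from 3.647 ± 0.6985 FPKM on 0d to 7.33 ± 0.9486 on 5d, without being called. Rgs5, called higher in PPARγ/+ cells, had 2 to 4 fragments per library on 0d and 16 on 5d, and passed the filter through PPARγ/+_5d. The part of other cell types in the rise of the PDGF receptors was not tested.

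None of the PDGF ligands was called from 0d to 5d in WT cells, where the means of 3 rose with a wide spread on 5d. Pdgfb went from 1.384 ± 0.4382 to 2.509 ± 1.448 FPKM, Pdgfc from 5.897 ± 0.7431 to 7.663 ± 2.957 and Pdgfd from 1.77 ± 0.8781 to 2.211 ± 1.308. Pdgfa went from 11.27 ± 0.2466 to 9.209 ± 1.071 FPKM. The list called the PDGF genes here held 6 genes, namely Pdgfa, Pdgfb, Pdgfc, Pdgfd, the receptor-like Pdgfrl and Nrp1, which is neither. Of these, Pdgfrl alone was called higher in WT cells (log2 2.03, SE 0.21, adjusted p = 8.96e-04). In PPARγ/+ cells Pdgfb, Pdgfc, Pdgfd and Pdgfrl were called higher, and the median log2 change of the 6 was 1.39 against 0.28 in WT cells. Pdgfb, the chain that binds both receptors, was at 0.101 ± 0.0580 FPKM in PPARγ/+_0d and at 1.14 ± 0.128 in PPARγ/+_5d (log2 2.67, SE 0.26, adjusted p = 3.26e-04). The interaction was not called for any of the 6 genes, with an adjusted p of 0.1335 for Nrp1, 0.181 for Pdgfc and 0.185 for Pdgfb.

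PPARγ/+ cells were compared with WT cells on each day, each on its 6 libraries, with a call at an adjusted p of at most 0.05 and at least 2-fold. On 0d, Hbegf was called lower and no member higher, where 1.23% of all genes were called lower and 0.361% higher. The 3 PPARγ/+_0d libraries held 3.02 to 3.75 FPKM of Hbegf and the WT_0d libraries 6.30 to 8.54. The difference was 2.09-fold (log2 -1.06, SE 0.14, adjusted p = 0.0232). It lies close to the 2-fold limit, and the call held in 7 of 15 alternatives, with a log2 difference from -1.17 to -0.90. It was lost without WT_0d replicate 2 or 3 and without any of the PPARγ/+_0d libraries, at adjusted p from 0.0567 to 0.0892. Met was also lower, with means of 4.71 ± 0.669 FPKM in PPARγ/+_0d and 8.09 ± 0.665 in WT_0d (log2 -0.77, SE 0.12, adjusted p = 0.0321), below 2-fold. Pdgfra lay higher in every PPARγ/+_0d library (log2 0.50, SE 0.10, adjusted p = 0.0580), without passing the test. These 3 members did not overlap between the cell types, as held for 26.8% of all genes, and the other 7 overlapped, with adjusted p of at least 0.231. The median of the 10 members was -0.03 and that of all genes 0.02.

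On 5d no member was called in limma, and voom on the recovered fragments called 0 as well. In limma 2 members had an unadjusted p of at most 0.05 (Hgf and Egfr), as had 2281 of the 18023 genes tested. Of all genes, 0.0943% were called higher and 0.061% lower. Egfr was at 8.31 ± 0.623 FPKM in PPARγ/+_5d and 6.21 ± 1.42 in WT_5d (log2 0.44, SE 0.17, adjusted p = 0.379). It was the 1 of 10 members whose cell types did not overlap, while 18.5% of all genes did not. Fgf7 differed by 0.77 (SE 0.38, adjusted p = 0.446) and Hgf by 0.67 (SE 0.25, adjusted p = 0.372), each in favour of PPARγ/+ cells. The count of genes called here rested on WT_5d replicate 3. Without it 723 genes were called in place of 28, and Fgf7 was called higher in PPARγ/+ cells (log2 1.22, SE 0.12, adjusted p = 0.0107). Hgf then differed by 0.93 (adjusted p = 0.0318) and Egfr by 0.60 (adjusted p = 0.0376), both below 2-fold. In this library Fgf7 (30.3 FPKM), Hgf (6.14) and Egfr (7.74) were the highest of WT_5d and near the PPARγ/+_5d values, and its myotube genes were the lowest.

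**Figure D4:**
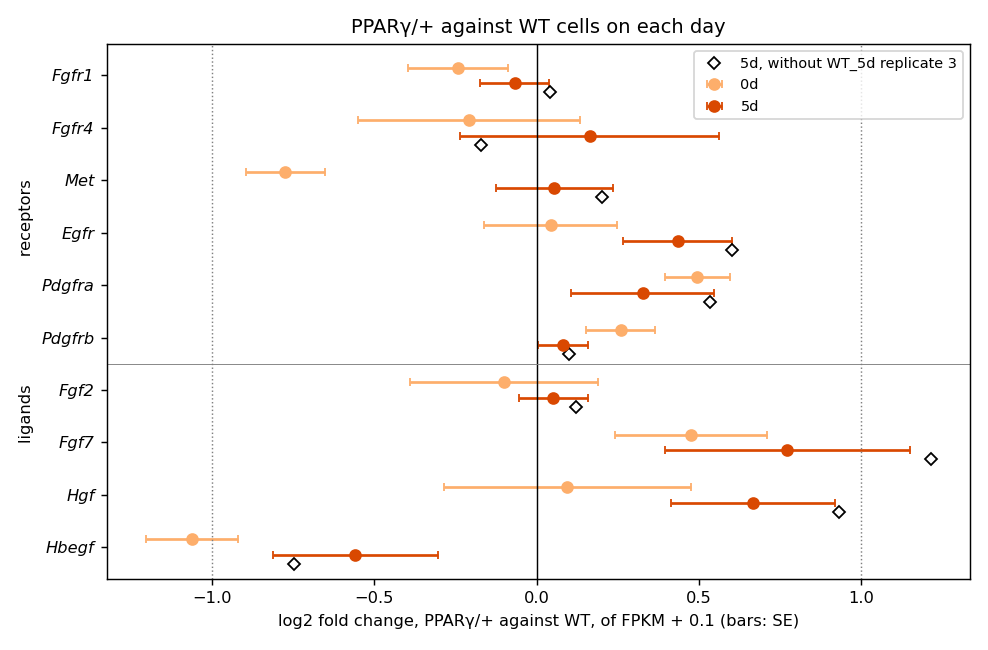
Log2 fold change of PPARγ/+ against WT cells on 0d and on 5d for each member (horizontal axis, on FPKM + 0.1), with bars of 1 SE from limma over 6 libraries each and dotted lines at 2-fold. Open diamonds give the 5d value without WT_5d replicate 3. Hbegf (-1.06) and Met (-0.77) lie lowest on 0d, and the diamond of Fgf7 lies at 1.22.

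The interaction term was called for no member, while 0.760% of all genes were called at an adjusted p of at most 0.05. Met alone had an unadjusted p of at most 0.05 in limma (0.00362), as had 2164 of the 18023 genes tested, and voom called 0 members. The interaction was positive for 8 of 10 members, with a median of 0.34 against -0.01 over all genes, and it ranged from -0.18 for Pdgfrb to 0.83 for Met.

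Genes around the receptors were counted in the same way. Of 16 tested heparan sulfate proteoglycans and their editing enzymes, which hold FGFs, HGF and HB-EGF at the cell surface, 3 were called higher from 0d to 5d in WT and 6 in PPARγ/+ cells, and none lower. Sdc2, a syndecan, rose from 100 ± 22.5 to 328 ± 38.4 FPKM in WT cells (log2 1.73, SE 0.18, adjusted p = 9.06e-04). It was also called higher in PPARγ/+ cells (log2 1.55). Sulf1, which trims sulfates needed for FGF binding, rose in PPARγ/+ cells (log2 1.93, SE 0.26, adjusted p = 0.00110). None of the 17 adaptors and kinases of the RAS-ERK cascade was called in any of the 5 comparisons, although at an unadjusted p the whole table held 8440 genes in WT and 9808 in PPARγ/+ cells between the days. Their median log2 change was -0.05 in WT and -0.19 in PPARγ/+ cells.

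Transcripts that respond to ERK changed in both directions. Of 13 tested feedback inhibitors, Spry1 was called higher and Dusp4 lower in WT cells, and in PPARγ/+ cells Spry1, Spry2 and Spred3 were called higher and Dusp4 lower. Spry1, a Sprouty inhibitor of receptor signalling, went from 4.93 ± 3.43 to 37.2 ± 6.92 FPKM in WT (log2 3.08, SE 0.43) and from 4.76 ± 1.66 to 36.2 ± 8.77 in PPARγ/+ cells (log2 2.93, SE 0.28). Dusp4, an ERK phosphatase of the nucleus, fell from 34.2 ± 4.47 to 8.84 ± 1.29 FPKM in WT (log2 -1.94, SE 0.14) and from 16.4 ± 3.08 to 7.56 ± 0.498 in PPARγ/+ cells (log2 -1.09, SE 0.13). Of 16 mitogen-responsive transcripts, 5 were called higher and 3 lower in WT cells, and 7 higher and 3 lower in PPARγ/+ cells. Fos was called higher in both cell types (log2 2.55, SE 0.64, adjusted p = 0.0227, in WT and log2 2.89 in PPARγ/+ cells). Its WT_5d libraries spread widely (25.3 ± 24.1 FPKM), and without WT_5d replicate 3 the WT value was 1.79. Etv4, an ETS factor downstream of FGF, fell in both (log2 -2.61, SE 0.17, in WT and -1.88, SE 0.12, in PPARγ/+ cells).

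On 0d, genes of the ERK lists that were called lay lower in PPARγ/+ than in WT cells, where 1.23% of all genes were called lower and 0.361% higher. None of the 23 calls on 0d within the lists held in every alternative. Of the 13 feedback inhibitors 3 were called lower (Dusp4, Dusp6 and Errfi1), of the 16 mitogen-responsive transcripts 5 (Egr2, Egr3, Etv1, Etv4 and Phlda1) and of the 6 PDGF genes 3 (Pdgfb, Pdgfc and Pdgfd), with none higher. Of the 11 ERBB genes Erbb3 and Errfi1 were called lower. Phlda1, an ERK-induced gene, was at 4.19 ± 0.277 FPKM in PPARγ/+_0d and 12.5 ± 0.465 in WT_0d (log2 -1.56, SE 0.072, adjusted p = 0.00380). Errfi1, a direct inhibitor of EGFR, was at 13.6 ± 3.04 and 29.7 ± 5.23 FPKM (log2 -1.13, SE 0.20, adjusted p = 0.0426). Pdgfb differed by -2.89 (SE 0.32, adjusted p = 0.0156), Plau by -1.77 (SE 0.21, adjusted p = 0.0188) and Sulf1 by -2.48 (SE 0.39, adjusted p = 0.0321). Fgfr2 was called higher, at 3.43 ± 0.188 against 1.58 ± 0.0921 FPKM (log2 1.07, SE 0.10, adjusted p = 0.0121). Of up to 15 alternatives each, the calls of Phlda1, Etv4 and Myf5 held in 14, Fgfr2 in 11, Pdgfb in 10, Plau and Pdgfc in 9 and Dusp4 in 8. Those of Sulf1, Egr3, Erbb3 and Cdh15 held in 7, those of Errfi1, Egr2, Pdgfd and Des in 6 and those of Dusp6 and Etv1 in 5. The medians on 0d were -0.41 for the feedback inhibitors, -0.37 for the mitogen-responsive transcripts and -0.89 for the PDGF genes. Myoblast genes lay lower in the same libraries, with 3 of 7 tested called (Cdh15, Des and Myf5), while none of the 10 proliferation genes was called. Their part in these differences was not tested. On 5d none of the feedback inhibitors, mitogen-responsive transcripts, PDGF genes or myoblast genes was called.

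**Figure D5:**
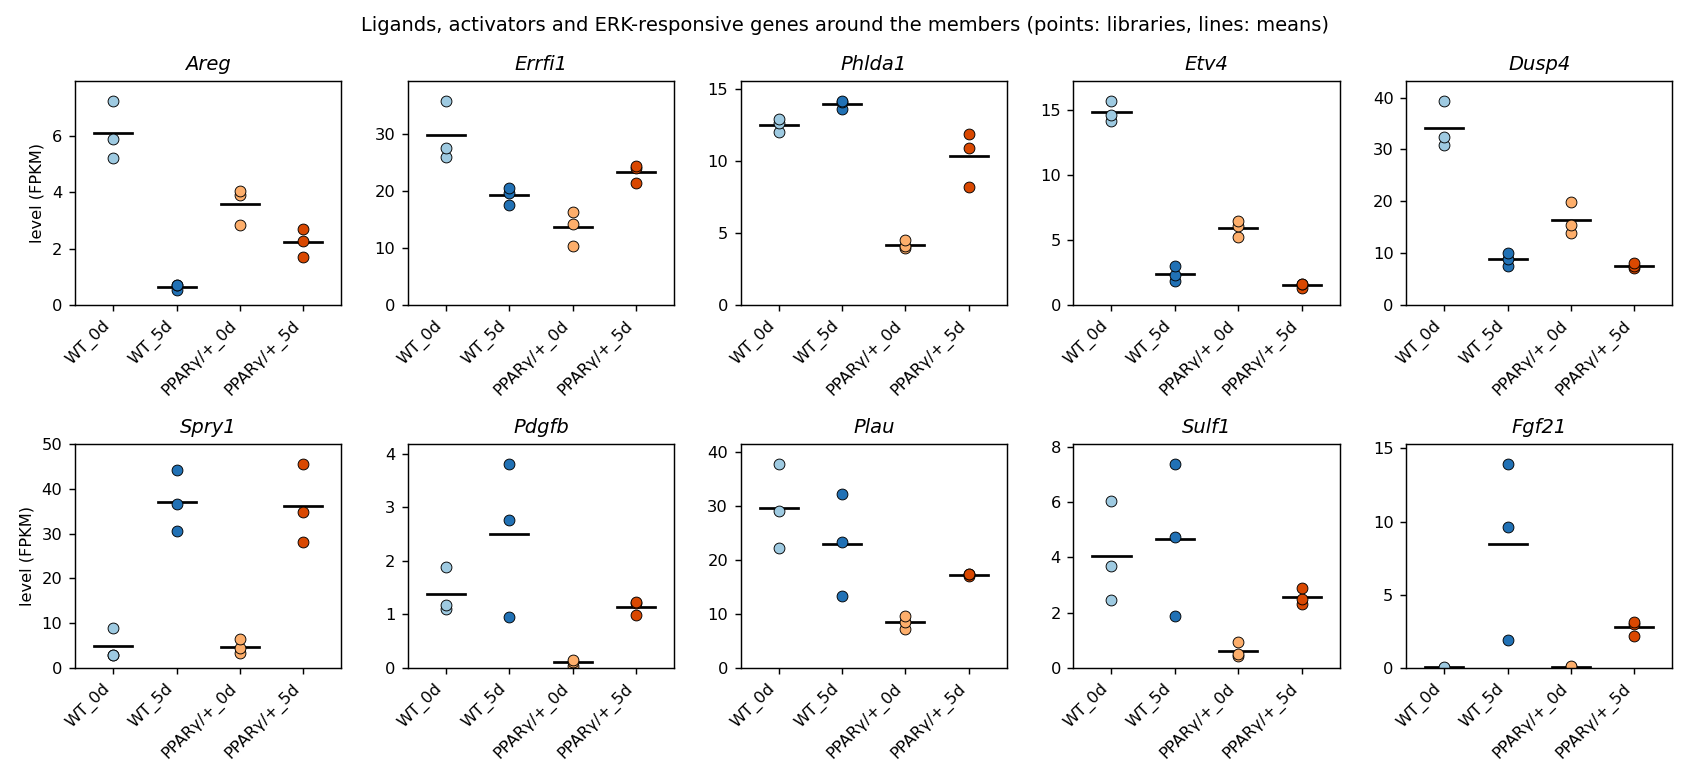
Level in FPKM (vertical axes, each from 0) of 10 genes around the members in the 4 groups, with a point for each library and a line at the mean of 3. Phlda1, Errfi1, Etv4, Dusp4, Pdgfb, Plau and Sulf1 are lower in every PPARγ/+_0d library than in every WT_0d library, and Areg falls to 0.659 FPKM on average in WT_5d.

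For each member the genes with the most similar course were found by Pearson's r over the 12 libraries, on log2(FPKM + 0.1), among genes with a mean of at least 1 FPKM. The libraries fall into 4 groups that differ by day, so r mostly ranks genes by the shape of that difference and is a description. Sulf2, which encodes a sulfatase that edits heparan sulfate, and Clec2d were closest to Pdgfra (both r = 0.992), and Rcn3 and Nucb2 to Pdgfrb (0.992 and 0.989). Rrad and Col3a1 were closest to Fgfr4 (both 0.985), Creb3l2 and Orm3 to Egfr (0.985 and 0.983) and Chst15 and Slc9a9 to Fgf2 (0.977 and 0.970). Members with a less regular course had lower values. Kitl and Ctps2 came closest to Fgf7 (0.958 and 0.956), Pias2 and Ptpn22 to Met (0.957 and 0.949), Vcl and Cdk5r1 to Hbegf (0.954 and 0.950), Sp100 and Cflar to Hgf (0.920 and 0.901) and Mroh1 and Rmc1 to Fgfr1 (0.917 and 0.899). Among the members, Pdgfra and Pdgfrb were most alike (0.947), followed by Egfr and Pdgfra (0.938), and Met and Pdgfrb were the most opposed (-0.749).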

How the data were processed

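RNA of the 12 libraries was sequenced by the study and the fragments counted per gene were turned by the authors into the FPKM deposited here (Trim Galore, STAR, HTSeq and the GRCm38 Ensembl annotation, as the methods state). The submitters' processing notes list mm9, and no deposited value used here holds a coordinate. A deposited table of log2 values equalled log2(FPKM + 1) of the authors' FPKM within 5.3e-14 and was used only for that check.

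Genes with at least 0.1 FPKM in at least 3 libraries (18023 of 46983) were fitted by limma 3.58.1 (R 4.3.3) with an intensity trend on log2(FPKM + 0.1), each comparison on its 6 libraries and the interaction on all 12. Adjusted p-values are Benjamini-Hochberg over all genes tested. Fold changes are on the log2(FPKM + 0.1) scale, which understates those of low genes. Whole fragments (tolerance 0.0001) were recovered from the FPKM, exonic lengths and the study's totals of mapped pairs, for 21030 genes with the annotated length. For 6108 genes, among them Fgfr1 and Hbegf, a length was inferred as the smallest that gave whole fragments. The fragments were used for depth and for limma-voom as an alternative, and limits from fragments cover counting error only. The fits were tested on simulated data. Tables and figures were made with Python 3.11.15, numpy 2.4.6, pandas 2.3.3 and matplotlib 3.10.9.

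The members, the 18 gene lists (199 genes) and the tests were chosen with earlier results of these data known, and the thresholds within a cell type were the study's. Within each list and comparison the called gene with the largest rise and that with the largest fall were named, given at least 1 FPKM on average in the higher group. For each member, the 2 genes with the highest r were named too. Other genes are named where a count was small, or to follow a named gene into another comparison, after their values were seen. Alternatives were other pseudocounts, filters, scalings and tools, a fit of all 12 libraries, a replicate block and leaving out each library. Labels gave no batch, so none was modelled.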

Additional observations from a re-analysis of the deposited data

Results flagged for a closer look

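In the interaction test over 12 libraries, which compares the 5d against 0d change of PPARγ/+ cells with that of WT cells, 4 genes of the lists passed an adjusted p of 0.05 by limma. The lists held 199 genes, not all of them tested, and 0.760% of all genes tested passed. Areg, an EGFR ligand, had an interaction of 2.35 on the log2 scale (SE 0.28, adjusted p = 0.00844), as its level fell from 6.10 to 0.659 FPKM in WT cells and from 3.596 to 2.22 in PPARγ/+ cells. Myf5, a factor of myoblast identity, had an interaction of 2.20 (SE 0.27, adjusted p = 0.00844), with 12.02 and 4.43 FPKM in WT_0d and WT_5d and 3.96 and 6.78 in PPARγ/+_0d and PPARγ/+_5d. Errfi1, the EGFR inhibitor, had 1.41 (SE 0.23, adjusted p = 0.0199), with 29.7 and 19.2 FPKM in WT and 13.6 and 23.2 in PPARγ/+ cells. Phlda1, an ERK-induced transcript, had 1.11 (SE 0.16, adjusted p = 0.0143), with 12.5 and 13.9 FPKM in WT and 4.19 and 10.3 in PPARγ/+ cells. Areg, Myf5 and Phlda1 were called in all 20 alternatives and Errfi1 in 16 of 20, with an adjusted p up to 0.0702. Without WT_5d replicate 3 the values were 2.23, 2.11, 1.45 and 1.09 for Areg, Myf5, Errfi1 and Phlda1. These genes were drawn from lists chosen with earlier results of the data known.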

How the results depend on the processing

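Of the 820 member values under alternatives, 776 kept their direction and their side of the threshold, 10 lost and 10 gained a call and 24 changed sign, none of which was a call. From 0d to 5d in WT cells, 2 members were called, 1 with a pseudocount of 1 and 6 with an adjusted p and no minimum fold. In PPARγ/+ cells 4 were called, and 7 with an adjusted p and no minimum fold, while Fgfr1 changed sign to 0.12 under both median-ratio scaling and quantile normalization. On 0d 1 member was called, but 0 with a pseudocount of 1, without a filter or with the replicate block, and 2 without the minimum fold. Leaving out 1 library gave 0 to 1 called members on 0d, on 5d and in the interaction. No-minimum-fold counts were added after seeing the data. Values that changed sign when 1 library was left out ranged, in WT cells, from -0.16 to 0.57 for Fgf7, -0.050 to 0.45 for Hgf and -0.18 to 0.29 for Hbegf, and in PPARγ/+ cells from -0.12 to 0.044 for Fgfr1. On 0d they ranged from -0.51 to 0.012 for Fgfr4, -0.40 to 0.16 for Fgf2, -0.22 to 0.45 for Hgf and -0.14 to 0.20 for Egfr. On 5d they ranged from -0.15 to 0.041 for Fgfr1, -0.17 to 0.58 for Fgfr4, -0.020 to 0.12 for Fgf2 and -0.070 to 0.20 for Met, and in the interaction from -0.10 to 0.45 for Fgf2 and -0.41 to 0.040 for Pdgfra. The causes were not tested.

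Replicate numbers are shared between groups. The 18 correlations of the deviations of same-numbered libraries lay between -0.0678 and 0.0834, so no strong shared shift was seen. They cannot tell whether same-numbered libraries were handled together. A block on the numbers leaves less to estimate the spread from in the fits of 6 libraries. With the replicate block Hbegf on 0d had an adjusted p of 0.165, no other member's call changed, and over all genes 0 were called on 0d, 0 on 5d and 61 in the interaction. All genes called were 2970 in WT cells (1441 with a pseudocount of 1, 6681 without the minimum fold), 2735 in PPARγ/+ cells (1241, 8569, and 1806 with a filter of 1 FPKM), 287 on 0d (115, 675, 107 without a filter, 485 by voom, 55 to 137 without 1 library), 28 on 5d (8, 71 with a pseudocount of 0.01, 199 in a fit of all 12 libraries, 1 to 723 without 1 library) and 137 in the interaction (42 to 527 without 1 library). Of 157 calls within the gene lists, 106 held in every alternative and 0 changed sign, and the 0d and 5d calls were all lost under the block.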
